A study of Mus musculus with 12 samples.

Results

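A set of 28 genes typical of spiral ganglion neurons and of Schwann cells was followed in RNA from the mouse cochlear epithelium. The genes were taken by name from 22869 gene symbols, 20 as neuron genes and 8 as glia genes, and each was represented by its transcript row with the most reads. The samples were Esrp1-/- embryos (Esrp1 knockout) and Esrp1+/+ embryos (control), with 3 embryos in each group, all C57BL/6 at embryonic day 16.5. Esrp1 encodes an RNA-binding protein that sets splicing patterns in epithelial cells. The cochlear duct was dissected by hand and cleared of mesenchyme with collagenase at 0.1 mg/ml and 37 °C for 15 min, the 2 cochleae of each embryo went into 1 sample, and 2 libraries of polyA RNA were made from it, which stand in 1 column of the read table.

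Spiral ganglion neurons carry sound signals from hair cells to the brainstem. Their cell bodies lie in the modiolus beside the cochlear duct, and their fibres enter the epithelium to reach the hair cells. Schwann cells and satellite glia come from the neural crest, follow these fibres and later myelinate them. In a bulk sample, fewer cells of a type and less RNA per cell cannot be told apart, so every level below may reflect either. Neurons and glia are not epithelial cells, and how much of the nerve was taken along with each duct was not recorded in the labels.

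Between 12547301 and 18473139 reads fell on genes in the knockout embryos, and between 16411205 and 21568516 in the control embryos. Of the symbols, 14717 genes had enough reads to be tested, and all 28 members were among them. Esrp1 itself averaged 33.5 ± 5.98 CPM (counts of a gene relative to the depth of its library, scaled by edgeR's TMM) in knockouts and 139 ± 50.9 CPM in controls (SD, n = 3 each), a log2 fold change of -2.05 ± 0.26 (SE) that passed in edgeR's quasi-likelihood test with an adjusted p of 0.0354. That call was lost without control 3 or without any of the 3 knockouts (adjusted p between 0.122 and 0.158), under a replicate block (0.134) and with Xist as a covariate (0.0806). In all, 22 genes or 0.149% of those tested passed an adjusted p of 0.05, 12 higher and 10 lower in the knockout. This count was 12, 0 and 4 without knockout 1, 2 and 3, and 30, 13 and 0 without control 1, 2 and 3.

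The embryos also differed in ways that the genotype labels do not name. Xist, the transcript of the inactive X chromosome, stood at 1098, 0.268 and 0.200 CPM in knockouts 1, 2 and 3, against 1688, 1312 and 1807 CPM in controls 1, 2 and 3, so that 1 knockout and all 3 controls had it at a high level. Both embryos numbered 1 were high in immediate early genes. Fos, a transcription factor of that class, had 64.6, 4.29 and 1.00 CPM in the knockouts and 153, 6.89 and 7.28 CPM in the controls. The part of sex and of these genes in the neuron and glia values was not tested beyond the fits given here.

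Reads of the neuron and glia genes were found in every embryo. The 20 neuron genes together took 0.121%, 0.125% and 0.095% of the reads in knockouts 1, 2 and 3, against 0.0502%, 0.188% and 0.111% in controls 1, 2 and 3. The 8 glia genes took 0.0435%, 0.0489% and 0.0555% of the reads in the knockouts and 0.0555%, 0.0496% and 0.0467% in the controls. Single genes weighed heavily in these sums. Erbb3 gave 6734 of 9103 glia reads in control 1 and 6479 of 10688 in control 2. Uchl1 gave 4851 of 8244 neuron reads in control 1 and 6938 of 40459 in control 2. The sums therefore do not show how most of the genes differed between embryos. For neurons the lowest and the highest embryo were both controls, and the knockouts lay between them. Markers of autonomic and central neurons and of central glia were low as a list. The summed level of 11 such genes was 7.41 to 8.27 CPM in knockouts and 8.51 to 8.77 CPM in controls, 3 of the 11 had enough reads to be tested, and Dbh, Slc32a1 and Olig2 had at most 2 reads in any embryo. The 3 tested, Gad1, Gad2 and Slc17a7, had more reads in every embryo than Dbh, Slc32a1 and Olig2. Gad1, an enzyme of GABA synthesis, had 4.19, 4.72 and 6.21 CPM in the knockouts and 5.33, 2.09 and 3.34 CPM in the controls, a level near that of Nefh. Gad2, its relative, had 0.229 to 0.859 CPM in the knockouts and 1.72 to 2.64 CPM in the controls (adjusted p = 0.357), and Slc17a7, another vesicular glutamate transporter, 0.467 to 0.859 CPM in the knockouts and 0.439 to 3.22 CPM in the controls. Neurog1, the factor that starts neuron formation in the otic vesicle and is shut off early, had 0 reads in all 6 embryos.

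No neuron gene passed the test of knockout against control. Of the 20 neuron genes 0 passed the threshold in edgeR's quasi-likelihood test, and 1 (Syt4) had an unadjusted p under 0.05. Fold changes were positive for 8 and negative for 12, with a median log2 fold change of -0.12 against 0.00 over all genes tested. The median standard error of these log2 fold changes was 0.54, against 0.19 over all genes tested, so that the comparison of most neuron genes was less precise than that of a typical gene, with Uchl1 (0.18) as an exception. DESeq2, an alternative count test, called 1 of the 20 (Syt4), where it called 1.04% of the 15982 genes to which it gave an adjusted p. Knockout and control embryos did not overlap for 2 of the 20 (Neurod1 above, Syt4 below), as for 9.84% of all genes tested. None of the 8 glia genes passed the threshold with either tool or had an unadjusted p under 0.05, and their groups overlapped in every case.

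**Figure D1:**
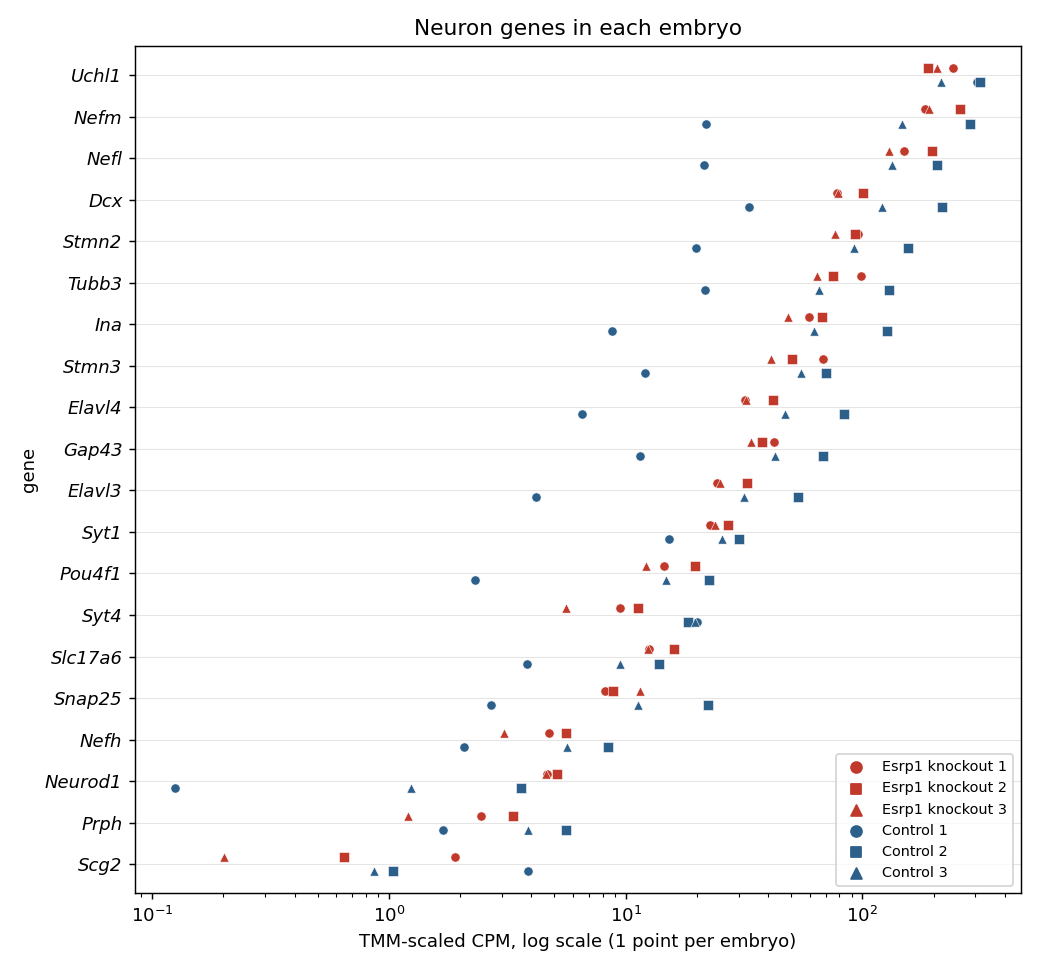
The 20 neuron genes in each embryo, as TMM-scaled CPM on a log axis, with 1 point per embryo (red, Esrp1 knockout; blue, control; symbols give the embryo number) and genes ordered by mean level. Control 1 is the leftmost point for 16 of the 20 genes and control 2 the rightmost for 16, with the knockouts mostly between them.

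Of the transcription factors, Neurod1, a basic helix-loop-helix factor that spiral ganglion neurons need to survive, had the largest fold change of the neuron genes in either direction. It had 4.65, 5.15 and 4.60 CPM in the knockouts, against 0.125, 3.63 and 1.24 CPM in the controls. All 3 knockouts lay above all 3 controls, and the knockouts were close to each other while the controls ranged over 28.9-fold. The reads behind these values were few, 61, 96 and 69 in the knockouts and 2, 80 and 23 in the controls. Its log2 fold change of 1.49 ± 0.74 (SE) had an adjusted p of 0.994, and it was 0.96 ± 0.43 without control 1 (adjusted p = 0.667) and 2.76 ± 0.69 without control 2 (adjusted p = 0.460). The gene lies on chromosome 2 (79452637 to 79456636, mm10). Pou4f1, a POU homeodomain factor of sensory neurons also called Brn3a, had 14.5, 19.5 and 12.1 CPM in the knockouts and 2.32, 22.6 and 14.8 CPM in the controls. The knockouts lay between controls 1 and 2, and the log2 fold change was 0.21 ± 0.61 (SE).

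Elavl3 and Elavl4 encode the neuronal Hu proteins, which bind AU-rich RNA and regulate its splicing and stability. Elavl3 had 24.4, 32.6 and 25.2 CPM in the knockouts, against 4.20, 53.4 and 31.7 CPM in the controls. Elavl4 had 31.9, 42.0 and 32.4 CPM in the knockouts, against 6.52, 83.8 and 47.1 CPM in the controls. In both genes control 1 was far below and control 2 above every other embryo, and the 2 controls differed by 12.7-fold and 12.9-fold. The log2 fold changes were -0.13 ± 0.65 for Elavl3 and -0.38 ± 0.66 for Elavl4 (SE).

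Among the cytoskeletal genes control 2 was the highest embryo, and control 1 the lowest in all but Prph. Tubb3, the neuronal class III beta tubulin, had 99.0, 75.3 and 64.3 CPM in the knockouts, against 21.6, 129 and 65.5 CPM in the controls (log2 fold change 0.14 ± 0.51, SE). Nefm, the medium neurofilament subunit, had 184, 259.6 and 191 CPM in the knockouts and 21.8, 284 and 146 CPM in the controls (0.49 ± 0.67). Nefl, the light subunit, had 149.7, 197 and 129.6 CPM in the knockouts and 21.4, 207 and 133 CPM in the controls (0.40 ± 0.61). For the 3 genes the knockout values all fell inside the span of the controls. Ina, alpha-internexin, the intermediate filament protein of developing axons, spanned 48.6 to 67.8 CPM in the knockouts and 8.77 to 127 CPM in the controls. Nefh, the heavy neurofilament subunit that accumulates as axons mature, and Prph, peripherin, which marks type II spiral ganglion neurons in the mature cochlea, were low throughout. Nefh reached 3.07 to 5.58 CPM in the knockouts and 2.07 to 8.39 CPM in the controls, and Prph 1.20 to 3.33 CPM in the knockouts and 1.69 to 5.58 CPM in the controls. Prph was the only one of these genes whose lowest embryo was a knockout.

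The 4 genes of growing axons and migrating neurons all had control 1 lowest and control 2 highest. Dcx, doublecortin, a microtubule binder of immature neurons, had 78.1, 101 and 78.7 CPM in the knockouts, against 33.1, 217 and 121 CPM in the controls. Knockouts 1 to 3 lay below controls 2 and 3 and above control 1, with a log2 fold change of -0.53 ± 0.52 (SE) and an adjusted p of 0.994. Without control 1 it was -0.98 ± 0.24 (adjusted p = 0.250), and without control 2 it was 0.15 ± 0.43. Stmn2, a stathmin family regulator of microtubules in growth cones, averaged 88.3 ± 10.2 CPM in knockouts and 89.4 ± 68.0 CPM in controls (SD, n = 3 each). Its relative Stmn3 averaged 53.3 ± 13.6 CPM in knockouts and 45.8 ± 30.2 CPM in controls. Gap43, a growth cone protein, averaged 37.9 ± 4.24 CPM in knockouts and 40.6 ± 28.2 CPM in controls. In each of the 3 the means differed by less than the SD of the controls, and the SD of the knockouts was the smaller one.

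The synaptic and secretory genes were less alike. Slc17a6, the vesicular glutamate transporter VGLUT2, had 12.5, 16.0 and 12.4 CPM in the knockouts, against 3.82, 13.8 and 9.43 CPM in the controls (log2 fold change 0.59 ± 0.39, SE). Snap25, a SNARE protein of synaptic vesicle fusion, had 8.16, 8.80 and 11.5 CPM in the knockouts and 2.69, 22.4 and 11.3 CPM in the controls (-0.36 ± 0.58). Syt1, the calcium sensor of fast transmitter release, had 22.6, 26.9 and 23.8 CPM in the knockouts and 15.3, 30.2 and 25.6 CPM in the controls (0.04 ± 0.24). Slc17a6 and Snap25 shared the gap between controls 1 and 2, whereas in Syt1 that gap was 1.98-fold. Scg2, secretogranin II of dense-core vesicles, had 1.91, 0.644 and 0.200 CPM in the knockouts and 3.89, 1.04 and 0.862 CPM in the controls, and was highest in the embryos numbered 1 of each group.

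Syt4, a synaptotagmin of dense-core vesicles, had 9.45, 11.3 and 5.61 CPM in the knockouts, against 20.0, 18.3 and 19.6 CPM in the controls. Every knockout lay below every control, and the 3 controls, which differed so much in most neuron genes, lay close together. Its log2 fold change of -1.13 ± 0.25 (SE) had an unadjusted p of 0.00169 and an adjusted p of 0.241 in edgeR's fit, and it lay between -1.36 and -0.90 when any 1 embryo was left out. DESeq2 gave -1.15 ± 0.27 (adjusted p = 0.00481), and the authors' deposited table gave -1.17 with an FDR of 0.0162, where it gave an FDR under 0.05 to 0.908% of genes. The gene (chromosome 18, 31437808 to 31447415, mm10) therefore passed in 2 of these 3 tests and not in the one used here for all genes. It also did not pass in any other edgeR fit tried, or in limma, a linear model test, on log2(FPKM + 0.1) (adjusted p = 0.442). Uchl1, a ubiquitin hydrolase abundant in neurons and the member with the highest level per transcript length (mean 96.6 FPKM over the 6 embryos, as deposited), had 242, 189.7 and 208 CPM in the knockouts and 304, 315 and 216 CPM in the controls. The log2 fold change of -0.39 ± 0.18 (SE) had an adjusted p of 0.994, and knockout 1 lay above control 3.

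The main difference among embryos in the neuron genes was between 2 controls. In 16 of the 20, control 2 was at least 3-fold above control 1 (3.30-fold for Prph to 28.9-fold for Neurod1), as in 4.19% of all genes tested. The exceptions were Syt1, Syt4, Scg2 and Uchl1. Control 1 was the lowest embryo for 16 of the 20 (21.45% of all genes) and control 2 the highest for 16 (13.18% of all genes). In 13 of the 16 genes with the 3-fold gap, all knockouts lay between these 2 controls. A wide gap by itself leaves more room for that. The share among all 617 genes tested with such a gap was not counted, so the number describes these genes only. A list of 32 other genes of neurons, none of them a member, also had control 1 lowest and control 2 highest: its mean log2 CPM, centred on the average of the 6 embryos, was 0.24, 0.17 and -0.09 in knockouts 1, 2 and 3, against -1.13, 0.73 and 0.08 in controls 1, 2 and 3. On that scale the 20 members stood at 0.22, 0.31 and -0.14 in the knockouts and at -1.45, 0.86 and 0.19 in the controls. Epithelial markers ran the other way between these controls, at -0.04, -0.03 and 0.27 in the knockouts and at 0.45, -0.41 and -0.24 in the controls. The glia lists shared both ends of the neuron order. The 8 glia members stood at -0.629 in control 1 and 0.352 in control 2, and 15 further Schwann cell genes at -0.412 and 0.395. Macrophage, mesenchymal, endothelial and erythroid markers shared the low or the high end, but none of these lists shared both. Macrophage genes were lowest in control 1 in 7 of 7 (list level -0.97 there) and mesenchymal genes in 7 of 10 (-0.46), but both lists were highest in knockout 1 (0.45 and 0.27). Endothelial genes were highest in control 2 in 6 of 6 (0.63) and erythroid genes in 4 of 4 (1.03). These 2 lists were lowest in knockout 3 (-0.585) and knockout 2 (-0.873). The part of these cells in the neuron values was not tested.

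**Figure D2:**
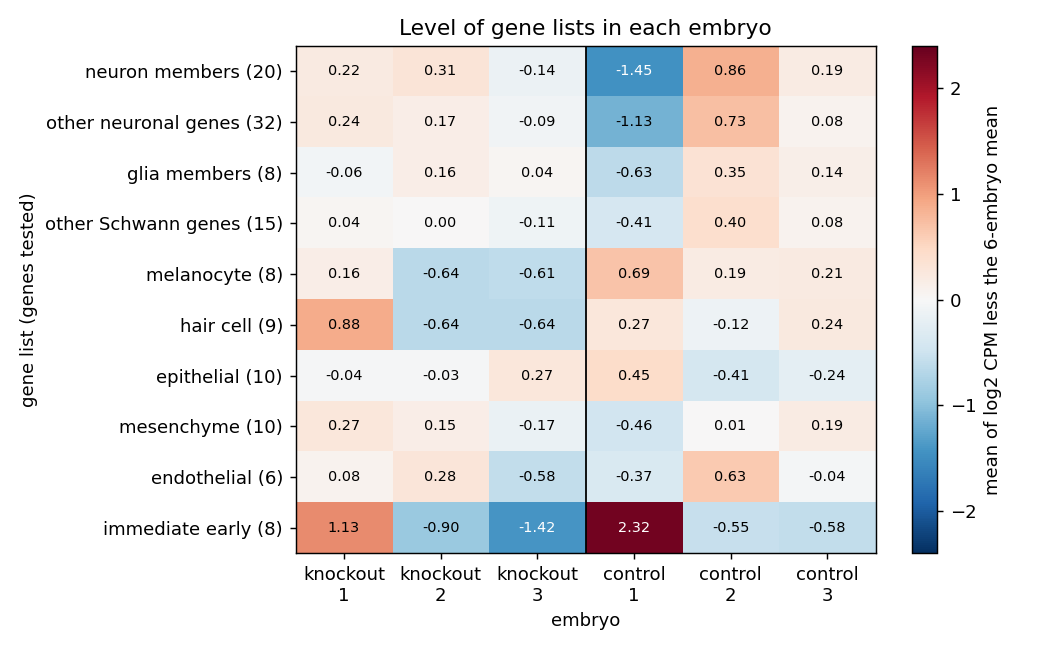
Level of 10 gene lists in each embryo, as log2 CPM averaged over the genes of a list and centred on the average of the 6 embryos (red above, blue below 0; knockouts left of the line, controls right of it). The neuron genes are lowest in control 1 (-1.45) and highest in control 2 (0.86), and the epithelial and immediate early genes are highest in control 1 (0.45 and 2.32).

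When the level of those 32 other neuronal genes was added to the edgeR model as a covariate, a fit chosen after the spread between embryos was seen, the standard errors of the 16 genes with the 3-fold gap ranged from 0.13 to 0.35, against 0.39 to 0.74 without it. The fit called 48 genes or 0.326% of those tested, among them all 22 of the model without the covariate, but again 0 of the 20 neuron and 0 of the 8 glia genes. The median log2 fold change of the neuron genes in this fit was 0.02. Neurod1 came closest to the threshold at 1.92 ± 0.33 (SE, adjusted p = 0.0703). Nefm stood at 0.71 ± 0.21 (adjusted p = 0.378), Dcx at -0.46 ± 0.16 (adjusted p = 0.543), and Syt4 was the same as before at -1.13 ± 0.25 (adjusted p = 0.157). The covariate was read from the same libraries as the members. It was itself lowest in control 1 (-1.13) and highest in control 2 (0.73), the gap by which the 16 genes were picked. Their smaller standard errors follow in part from that choice, and no conclusion is drawn from them.

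**Figure D3:**
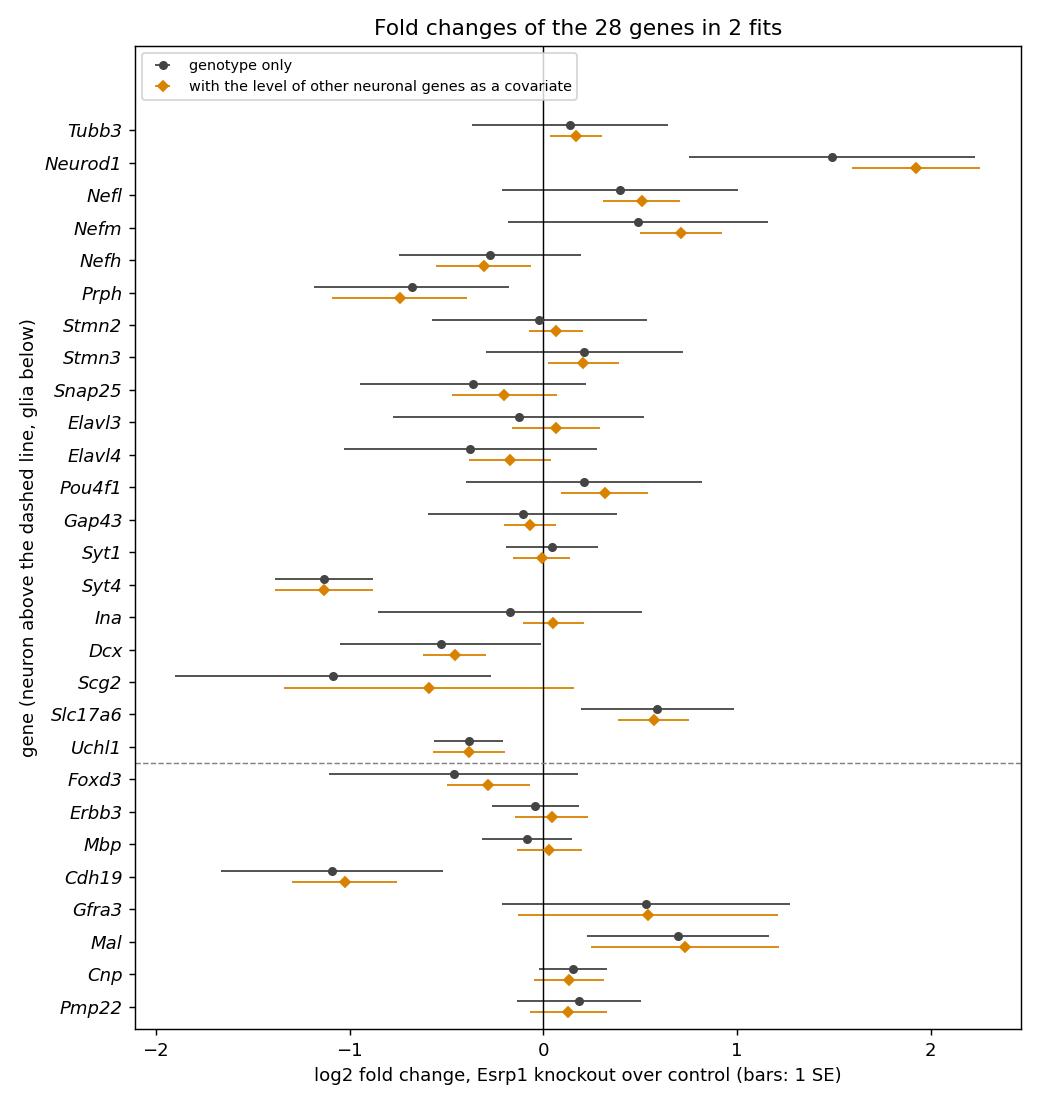
log2 fold changes, Esrp1 knockout over control, of the 28 genes in the edgeR fit on genotype alone (grey circles) and in the fit with the level of 32 other neuronal genes as a covariate (orange diamonds), with bars of 1 SE. The bars of most neuron genes shorten with the covariate while those of Syt4 and Uchl1 do not, and Neurod1 lies furthest to the right in both fits (1.49 and 1.92).

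The sequences before the transcription start of the neuron genes were read because these genes shared an order of embryos. RefSeq's GRCm38.p6 table held an entry for 17 of the 28 members, and windows of 250 bases before each listed start were searched on both strands for 2 E-box forms bound by basic helix-loop-helix factors, CAGCTG and CAGATG. The letters of the reverse complement are the same for the first form and CATCTG for the second, and the forms do not overlap each other. CAGCTG stood in 6 of 19 neuron windows (31.58%; Elavl3, Elavl4, Ina, Pou4f1 and Syt1) and CAGATG in 5 of 19 (26.32%; Elavl4, Slc17a6 and Stmn3), against 13.0% and 14.44% of the 32851 windows of the whole table. Of the 4 windows of Elavl4, 2 overlap and so share matches. By gene, CAGCTG stood in 5 and CAGATG in 3 of the 13 neuron genes with a window. The share by gene over the whole table was not counted. Genes with several windows have more places for a match, so the counts by gene cannot be set against the shares by window. For the matching windows of Ina and Slc17a6, the bases after the listed start were not found in an annotated transcript of the gene. Neither form stood in the 7 glia windows. Shown are 1 window each of Elavl3 and Pou4f1 with CAGCTG, of Stmn3 with CAGATG, and of Neurod1 with no match, 5′ to 3′ on the minus strand of the chromosome, with the matching letters in capitals. They lie at chr9:22052024-22052273 for Elavl3, chr14:104468000-104468249 for Pou4f1, chr2:181314501-181314750 for Stmn3 and chr2:79456637-79456886 for Neurod1. A match is a description of these letters only.
Elavl3: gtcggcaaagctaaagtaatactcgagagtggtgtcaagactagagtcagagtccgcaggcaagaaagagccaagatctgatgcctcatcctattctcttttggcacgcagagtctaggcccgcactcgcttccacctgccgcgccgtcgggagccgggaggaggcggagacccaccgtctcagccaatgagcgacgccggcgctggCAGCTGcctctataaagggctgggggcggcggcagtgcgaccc
Pou4f1: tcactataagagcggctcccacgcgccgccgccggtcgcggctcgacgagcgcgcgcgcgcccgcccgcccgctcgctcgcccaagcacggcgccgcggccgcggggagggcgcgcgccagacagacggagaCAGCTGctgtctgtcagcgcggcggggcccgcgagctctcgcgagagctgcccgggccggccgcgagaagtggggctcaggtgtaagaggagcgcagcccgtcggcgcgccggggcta
Stmn3: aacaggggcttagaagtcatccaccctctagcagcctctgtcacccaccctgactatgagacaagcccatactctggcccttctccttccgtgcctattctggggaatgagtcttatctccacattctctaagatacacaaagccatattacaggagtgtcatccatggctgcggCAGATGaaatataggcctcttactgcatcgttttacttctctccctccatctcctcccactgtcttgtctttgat
Neurod1: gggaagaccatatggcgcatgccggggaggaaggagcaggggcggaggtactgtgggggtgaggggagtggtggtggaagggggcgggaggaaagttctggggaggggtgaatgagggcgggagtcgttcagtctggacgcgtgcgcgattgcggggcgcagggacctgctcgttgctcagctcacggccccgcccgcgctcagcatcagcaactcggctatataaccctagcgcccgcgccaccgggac

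The glia genes fell into 2 kinds. Foxd3, a neural crest transcription factor kept in early Schwann cell precursors, Cdh19, a cadherin of those precursors, and Gfra3, the artemin co-receptor, had the same gap as the neuron genes, with control 2 above control 1 by 10.1-fold, 6.82-fold and 6.51-fold. In the other 5 glia genes the ratio of control 2 to control 1 was 0.634 to 2.47. The median log2 fold change of the 8 genes was 0.06, with 4 positive and 4 negative.

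Among the first kind, Cdh19 had 5.11, 9.50 and 6.00 CPM in the knockouts, against 3.57, 24.4 and 16.1 CPM in the controls. The knockouts lay below controls 2 and 3 and above control 1. The log2 fold change of Cdh19 stood at -1.09 ± 0.57 (SE) with an adjusted p of 0.994, -1.55 ± 0.30 without control 1 (adjusted p = 0.129), -0.51 ± 0.55 without control 2 and -1.03 ± 0.27 with the neuronal covariate (adjusted p = 0.269). Foxd3 had 8.08, 11.4 and 7.14 CPM in the knockouts and 2.44, 24.8 and 9.38 CPM in the controls, with a log2 fold change of -0.46 ± 0.64 (SE). Gfra3 was hardly detected, with 5, 33 and 16 reads in the knockouts and 2, 18 and 24 in the controls. The ratio of its summed reads, scaled for depth, was 1.49 (exact 95% interval 0.979 to 2.26, counting error only), and its groups overlapped.

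Of the second kind, Erbb3, the neuregulin receptor on which Schwann cells depend and the glia gene with the highest level per transcript length (34.1 FPKM), had 242, 329 and 421 CPM in the knockouts and 422, 294 and 305 CPM in the controls. Mbp, myelin basic protein, had 39.3, 46.5 and 60.0 CPM in the knockouts and 69.5, 44.0 and 41.2 CPM in the controls. Erbb3 and this row of Mbp were highest in control 1 and next highest in knockout 3, the 2 embryos in which the epithelial markers were also highest. The low ends differed, with knockout 1 lowest for both genes and control 2 lowest for the epithelial markers (-0.415). The part of epithelial cells in these values was not tested. Their log2 fold changes were -0.04 ± 0.23 for Erbb3 and -0.08 ± 0.23 for Mbp (SE). The Mbp row with the most reads is a transcript that starts upstream of the myelin-type start (chromosome 18, 82475146 to 82558703, mm10), with 516, 867 and 899 reads in the knockouts and 1109, 971 and 764 in the controls. A row from the downstream start (82554530 to 82584156) had 153, 310 and 222 reads in the knockouts and 201, 395 and 300 in the controls. Its order of embryos was another: it was highest in control 2 (17.9 CPM) and lowest in knockout 1 (11.7 CPM), with control 1 at 12.6 CPM. The value given for Mbp is thus mainly that of the longer transcription unit.

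Cnp, the nucleotide phosphodiesterase of myelinating glia, had 82.0, 53.0 and 58.3 CPM in the knockouts and 56.0, 62.9 and 54.5 CPM in the controls. Pmp22, a peripheral myelin protein, had 29.0, 31.2 and 28.6 CPM in the knockouts and 12.5, 30.8 and 34.7 CPM in the controls. Mal, a myelin and lymphocyte proteolipid also made by epithelia, had 10.1, 2.95 and 3.74 CPM in the knockouts and 4.32, 3.27 and 2.75 CPM in the controls. One embryo stood away from the rest in each, knockout 1 for Cnp and Mal and control 1 for Pmp22. The log2 fold changes were 0.15 ± 0.17, 0.18 ± 0.32 and 0.69 ± 0.47 for Cnp, Pmp22 and Mal (SE), and that of Mal was -0.05 without knockout 1.

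**Figure D4:**
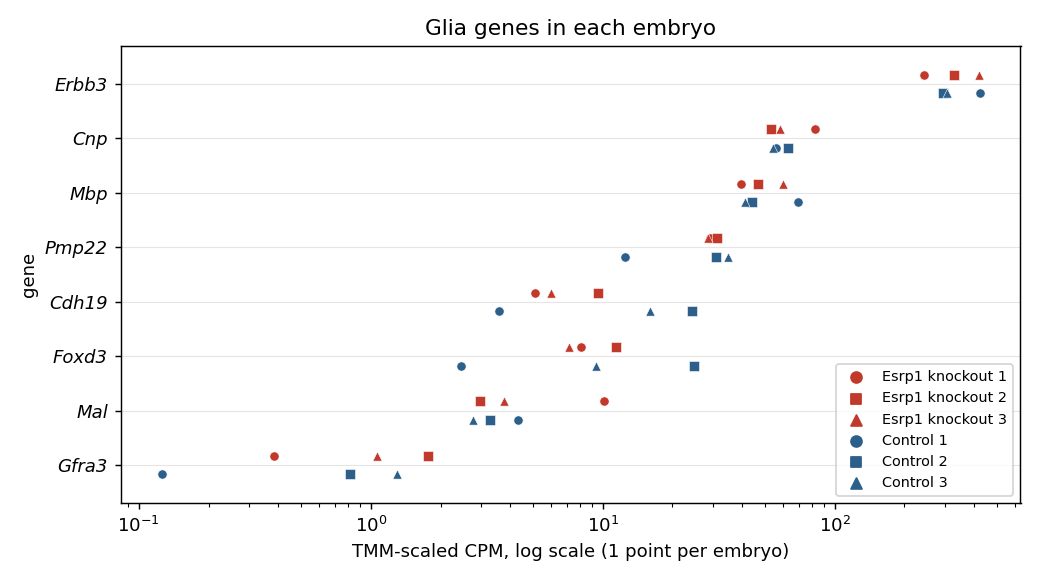
The 8 glia genes in each embryo, as TMM-scaled CPM on a log axis, with 1 point per embryo (red, Esrp1 knockout; blue, control; symbols give the embryo number). Foxd3, Cdh19 and Gfra3 have control 1 as their lowest point, and Erbb3 and Mbp (its row with the most reads) have it as their highest.

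Other genes of the ganglion were read from 4 lists. None of the 11 ganglion transcription factors tested passed the threshold, and 3 were positive and 8 negative. Gata3, which spiral ganglion neurons share with the cochlear epithelium, had 116, 259 and 262 CPM in the knockouts and 451, 324 and 324 CPM in the controls (log2 fold change -0.79 ± 0.30, SE, adjusted p = 0.869, edgeR). Prox1, a homeobox factor of supporting cells and of these neurons, had 11.4, 24.7 and 25.0 CPM in the knockouts and 43.0, 34.0 and 34.6 CPM in the controls (-0.86 ± 0.28, adjusted p = 0.646). In both genes the knockouts lay below the controls, and control 1 was the highest embryo and not the lowest. The groups were also apart, in the other direction, for Nhlh1, a basic helix-loop-helix factor of young neurons named after its values were seen, with 5.95, 4.24 and 4.60 CPM in the knockouts and 1.19, 3.40 and 2.16 CPM in the controls (1.11 ± 0.39, adjusted p = 0.780). In all, the groups were apart for 3 of the 11, and for 9.84% of all genes tested. Isl1, a LIM homeodomain factor of sensory neurons and of the prosensory epithelium, had a log2 fold change of -0.19 ± 0.21 (SE).

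Of the 32 other neuronal genes tested, 0 passed, 16 were positive and 16 negative, and the median log2 fold change was -0.01. The most abundant, Dpysl3, Kif1a, Kif5c and Dpysl5, which act in growth cone guidance and in transport along axons, had log2 fold changes of 0.15 ± 0.24, 0.08 ± 0.15, -0.19 ± 0.29 and -0.21 ± 0.16 (SE). Of the 15 channels and receptors 0 passed, 2 were positive and 13 negative, and the median log2 fold change was -0.37. The neurotrophin receptors stood on opposite sides. Ntrk2, the BDNF receptor TrkB, had 86.2, 87.0 and 91.2 CPM in the knockouts and 49.8, 65.7 and 68.8 CPM in the controls (0.52 ± 0.14, adjusted p = 0.487). Ntrk3, the neurotrophin-3 receptor TrkC, had 12.4, 11.8 and 12.9 CPM in the knockouts and 16.2, 18.5 and 16.9 CPM in the controls (-0.48 ± 0.16, adjusted p = 0.689). The groups did not overlap for either gene, as for 3 of the 15 in this list and for 9.84% of all genes tested. Control 2 stood at 1.32-fold control 1 for Ntrk2 and 1.14-fold for Ntrk3, so neither had the gap of most neuron genes. Scn9a, a voltage-gated sodium channel, had a log2 fold change of -0.37 ± 0.39, and Gria4, an AMPA receptor subunit, -0.35 ± 0.47 (SE).

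Of 15 further Schwann cell genes 0 passed, 6 were positive and 9 negative, with a median log2 fold change of -0.29. Control 2 was at least 3-fold above control 1 in 6 of the 15, and the ratio ranged from 0.372 for Egr2 to 7.39 for Gjc3. Of the 4 most abundant, Ednrb, the endothelin receptor of neural crest cells, had 182, 223 and 204 CPM in the knockouts and 93.0, 472 and 287 CPM in the controls. Fabp7, a fatty acid binding protein of Schwann cell precursors, had 130.1, 151 and 105 CPM in the knockouts and 48.6, 262 and 162 CPM in the controls. These 2 had control 1 lowest and control 2 highest, with log2 fold changes of -0.48 ± 0.46 and -0.29 ± 0.48 (SE). Sox10, the neural crest factor that is also made in the cochlear epithelium, had 335, 323 and 355 CPM in the knockouts and 474, 291 and 277 CPM in the controls, and Erbb2, the partner of Erbb3, had 112, 117 and 142 CPM in the knockouts and 152, 104 and 106 CPM in the controls. Sox10 and Erbb2 had control 1 highest, with log2 fold changes of -0.04 ± 0.21 and 0.03 ± 0.18.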

How the data were processed

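Cochlear epithelium of 3 Esrp1 knockout and 3 control embryos was measured by RNA-seq of polyA RNA with a directional kit, per the labels' protocols. The authors deposited read counts per RefSeq transcript and embryo, with no normalisation per the file headers; the 2 libraries of an embryo share a column and were 1 replicate. They also deposited FPKM per embryo, scaled by transcript length and library size. Per the file headers, the deposited log2 fold changes and FDR (adjusted p-values) come from an edgeR comparison over transcript rows. Tools and builds named in the submitters' processing notes are edgeR and mm10. The aligner, counter and strand setting were not given in the sources used here, so overlapping and antisense reads may be included. A further 15 columns were not used.

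Per gene, the row with most reads was used. In edgeR 4.0.16 (R 4.3.3), genes were kept with filterByExpr (minimum count 10), scaled by TMM and tested with the quasi-likelihood F test, knockout over control, with Benjamini-Hochberg adjustment over 14717 genes and a threshold of 0.05. The standard error is |log2 fold change| divided by √F. The embryos were individual animals, so p-values rest on the spread between embryos, and 3 against 3 embryos cannot give a permutation p below 0.1. List levels use log2 CPM (prior count 2). Alternatives were DESeq2 1.42.0, limma 3.58.1 on log2(FPKM + 0.1), other size factors, no filter, summed transcript rows, a replicate block, Xist or other neuronal genes as a covariate, and leaving embryos out. Members and lists were chosen with earlier results of these data known. All 28 members are described, with up to 4 of each further list by highest mean CPM. Some genes are not reported here. Coordinates and promoter sequences are RefSeq's on GRCm38, the assembly that mm10 represents.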

Additional observations from a re-analysis of the deposited data

How the results depend on the processing

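Of 420 fold changes of single members under 15 alternatives, 357 kept their sign and their side of the threshold, 62 in 22 genes turned sign and 1 (Syt4 in DESeq2) passed it. No fold change that turned was called in any fit, and 6 genes never turned. No alternative called a member, except DESeq2, which called 1 neuron gene. The samples share a number and the start of a label code, whose meaning is not stated. Deviations from the group means correlated at 0.077, 0.177 and 0.029 between same-numbered embryos, and at -0.224 to 0.158 between the others. Knockouts 1 and 2 correlated best with their own number, and knockout 3 with control 1 (0.105). Such deviations sum to 0 within a group of 3, so these values cannot decide whether the samples were paired. The main fit did not treat them as paired, and the replicate block is given as an alternative. With the replicate block 6 genes were called in all, and the log2 fold change of Esrp1 was -2.0 and no longer passed (adjusted p = 0.134); under the block Stmn2 turned to 0.33, Snap25 to 0.01, Elavl3 to 0.32, Elavl4 to 0.09, Gap43 to 0.16 and Ina to 0.34. With Xist in the model the count was also 6, Esrp1 was -2.36 and no longer passed (adjusted p = 0.0806), and Stmn2 was 0.06, Gap43 0.02, Syt1 -0.09, Scg2 0.15 and Gfra3 -1.06. Without both embryos numbered 1, 159 genes were called, and Tubb3 was -0.49, Nefl -0.07, Stmn3 -0.46, Pou4f1 -0.25, Syt1 -0.15, Erbb3 0.31, Mbp 0.31, Cnp -0.09 and Pmp22 -0.14. With the neuronal covariate, chosen after seeing the data, 48 were called, and Stmn2 was 0.07, Elavl3 0.07, Syt1 -0.01, Ina 0.05, Erbb3 0.04 and Mbp 0.03. DESeq2 called 166. With limma on log2(FPKM + 0.1), a scale that understates changes of low genes, Stmn2 was 0.45, Snap25 0.07, Elavl3 0.44, Elavl4 0.23, Gap43 0.26, Ina 0.52 and Foxd3 0.06. The median of the neuron genes was -0.57 without both embryos numbered 1, 0.24 under the block and 0.35 in limma.

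Leaving out 1 embryo at a time, the count over all genes ran from 0 to 30 and Esrp1 from -2.23 to -1.71. The median of the neuron genes ran from -0.41 without control 1 to 0.54 without control 2. Single genes ran from -0.30 to 0.86 for Tubb3, -0.10 to 1.04 for Nefl, -0.03 to 1.33 for Nefm, -0.65 to 0.20 for Nefh, -0.49 to 0.65 for Stmn2, -0.24 to 0.66 for Stmn3, -0.83 to 0.43 for Snap25, -0.64 to 0.60 for Elavl3, -0.89 to 0.39 for Elavl4, -0.28 to 0.84 for Pou4f1, -0.55 to 0.48 for Gap43, -0.19 to 0.26 for Syt1, -0.69 to 0.72 for Ina, -0.98 to 0.15 for Dcx and 0.96 to 2.76 for Neurod1. Among the glia genes they ran from -0.94 to 0.58 for Foxd3, -0.26 to 0.14 for Erbb3, -0.27 to 0.19 for Mbp, -0.04 to 1.14 for Gfra3, -0.05 to 1.01 for Mal, -0.07 to 0.28 for Cnp, -1.55 to -0.51 for Cdh19 and -0.15 to 0.44 for Pmp22. The cause of these turns was not tested. Gfra3, Scg2 and Neurod1 had the fewest reads among the members, and of these the counting interval of the ratio included 1 for Gfra3 only. That interval holds counting error in summed reads and leaves out the spread between embryos. In edgeR's quasi-likelihood test, which includes that spread, Scg2 was -1.08 ± 0.82 and Neurod1 1.49 ± 0.74 (SE), each with an adjusted p of 0.994.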

Other observations

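Ratios of reads between genes within an embryo were taken after their values were seen and were not tested. Of the 6 ratios taken, 5 separated the groups, but the pairs were picked by hand and several share a gene. How often other pairs of genes separate the groups was not counted, so no conclusion is drawn from that number. Nefm reads over Dcx reads were 2.35, 2.58 and 2.43 in knockouts 1, 2 and 3, against 0.656, 1.31 and 1.21 in controls 1, 2 and 3. Nefl reads over Dcx reads were 1.92, 1.95 and 1.65 in the knockouts, against 0.647, 0.952 and 1.10 in the controls. In both ratios a neurofilament subunit is set against doublecortin, a protein of immature neurons, and the 3 knockouts lay above the 3 controls although the levels of each gene overlapped. Neurod1 reads over Tubb3 reads were 0.0470, 0.0684 and 0.0717 in the knockouts, against 0.00580, 0.0281 and 0.0189 in the controls. Cdh19 reads over Foxd3 reads, 2 genes of Schwann cell precursors, were 0.632, 0.831 and 0.841 in the knockouts, against 1.46, 0.984 and 1.71 in the controls. Cdh19 reads over Dcx reads were 0.0654, 0.0943 and 0.0763 in the knockouts, against 0.108, 0.112 and 0.133 in the controls. Stmn3 reads over Stmn2 reads overlapped, at 0.713, 0.543 and 0.539 in the knockouts and 0.608, 0.452 and 0.594 in the controls. These ratios differ between genes of unequal transcript length, so that only their order over embryos can be read.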
